A study of Mus musculus with 9 samples.

Results

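The mouse genome carries its odorant receptor genes in clusters, and 138 of the 1122 gene symbols that start with Olfr in the deposited tables lie on chromosome 9. They were chosen by symbol and position alone, and they make up 12.3% of the Olfr symbols listed. Messenger RNA came from 3 sorted populations of main olfactory epithelium, taken at an age of 4 weeks. Horizontal basal cells (HBC), a reserve stem cell layer, were taken as cells positive for anti-CD54-PE, an antibody to the protein of Icam1. Globose basal cells and neuronal precursors (GBC) were taken by the reporter Neurog1-EGFP, and mature olfactory sensory neurons (mOSN) by the reporter OMP-ires-EGFP. In both reporter populations the green fluorescent protein marks cells in which the promoter of Neurog1 or Omp is or has recently been active, so the sorted cells can span neighbouring stages. The sources used here do not give strain, sex or the number of animals. Poly-A RNA was selected with the same kit in all 3. Library preparation then used ScriptSeq for HBC, and an Illumina mRNA kit for GBC and mOSN. With 1 library for each population, differences could not be checked against replicates and no test between populations was made. Kit and population cannot be told apart in any comparison with HBC.

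An odorant receptor is a G protein-coupled receptor of the sensory cilium. Each mature sensory neuron is known to express 1 allele of 1 receptor gene, and the chosen receptor also guides where its axon ends in the olfactory bulb. The level of a receptor gene in RNA from many neurons therefore reflects both how many neurons chose it and how much RNA each of them holds. In these bulk samples fewer cells of a type and less RNA per cell cannot be told apart. The receptors of chromosome 9 belong to class II, the receptors typical of land vertebrates.

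Values are FPKM, fragments scaled to the length of the gene model and to the mapped fragments of the library, so levels of different genes can be set side by side per length. The implied number of fragments behind a value, read from its deposited interval, is given where it bears on precision. These intervals do not cover differences between libraries. For genes with near copies or overlapping models they can be wider than counting gives, so implied fragments are not counts there. Olfr899 in GBC, for example, was listed at 0.000132 FPKM with an upper bound of 0.194. The libraries held 16516700 to 18123443 implied fragments each, of which the 138 receptor genes took 172 (HBC), 1352 (GBC) and 7911 (mOSN). The median receptor gene rested on 0, 6.63 and 39.3 implied fragments in HBC, GBC and mOSN. Ratios are log2 of (FPKM + 1) over (FPKM + 1), a scale that shrinks the ratios of genes at low levels, and a 2-fold difference means 1 on it. Of the 138 gene models, 118 span at most 1200 bp (median over all 138, 945 bp), about the length of a receptor's single coding exon, so further exons of these genes lie outside the models.

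The genes fall into 2 clusters separated by 17.4 Mb without an Olfr symbol. The proximal cluster holds 36 genes over 1.58 Mb, from Olfr24 to Olfr18 (mm9, chr9:18559136-20140538). The distal cluster holds 102 genes over 2.48 Mb, from Olfr160 to Olfr986 (mm9, chr9:37518933-39995679), and is the denser of the pair, with 41.2 genes per Mb against 22.8 genes per Mb in the proximal cluster. The older MOR names, which number receptors by protein family, were found for 132 members as synonyms in RefSeq. They name 29 families, and none of the 29 has members in both clusters.

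Some neighbours are near copies, so the values of single genes among them are uncertain. The following lines give the first 40 bases of the coding sequence, 5′ to 3′, for a pair of neighbours around the highest gene, for a pair with opposite patterns, for the much studied receptor M72 (Olfr160) and for the gene at the proximal end (Olfr24). They come from RefSeq on build GRCm38.p6. Capitals mark the start codon and, within each of the 2 pairs, the base that differs.
Olfr969: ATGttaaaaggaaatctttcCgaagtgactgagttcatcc
Olfr970: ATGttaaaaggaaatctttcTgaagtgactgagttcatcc
Olfr951: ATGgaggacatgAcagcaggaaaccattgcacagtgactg
Olfr954: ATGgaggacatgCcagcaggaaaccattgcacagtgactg
Olfr160: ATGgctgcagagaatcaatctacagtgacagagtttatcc
Olfr24: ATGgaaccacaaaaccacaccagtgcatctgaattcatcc
Counted from 1 at the A of the start codon, Olfr969 and Olfr970 differ by C21T, and Olfr951 and Olfr954 by A13C. On GRCm38.p6 the 6 stretches lie at chr9:39795377-39795416 (Olfr969, plus strand), chr9:39819641-39819680 (Olfr970, plus), chr9:39393793-39393832 (Olfr951, plus), chr9:39461433-39461472 (Olfr954, plus), chr9:37712238-37712277 (Olfr160, minus) and chr9:18755594-18755633 (Olfr24, minus). The starts of 78 members whose RefSeq model starts within 10 bases of an ATG were compared base by base, without gaps. The nearest of the others compared shared a median of 33 of the 40 bases. Members outside the 78 and likeness after a shift of bases are not covered. The sources used here do not say how fragments shared by near copies were counted.

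Receptor RNA from chromosome 9 was close to absent from HBC, low in GBC and highest in mOSN. The summed level was 3.81 FPKM in HBC, 109.8 FPKM in GBC and 506 FPKM in mOSN. Of the 138 genes 0 reached 1 FPKM in HBC, 38 did so in GBC and 104 in mOSN, while of all 21909 symbols 52% did in HBC, 52% in GBC and 52.7% in mOSN. A level of 0 was listed for 107 members in HBC, 5 in GBC and 2 in mOSN, against 21%, 13.1% and 22.3% of all symbols. The median gene stood at 0 in HBC, 0.595 FPKM in GBC (quartiles 0.342 and 1.07) and 2.41 FPKM in mOSN (quartiles 1.05 and 5.22). In GBC the genes were listed broadly and at low levels, since 128 of 138 were at or above 0.1 FPKM and only Olfr24 was above 5 FPKM. In mOSN 129 were at or above 0.1 FPKM and 37 at or above 5 FPKM.

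**Figure D1:**
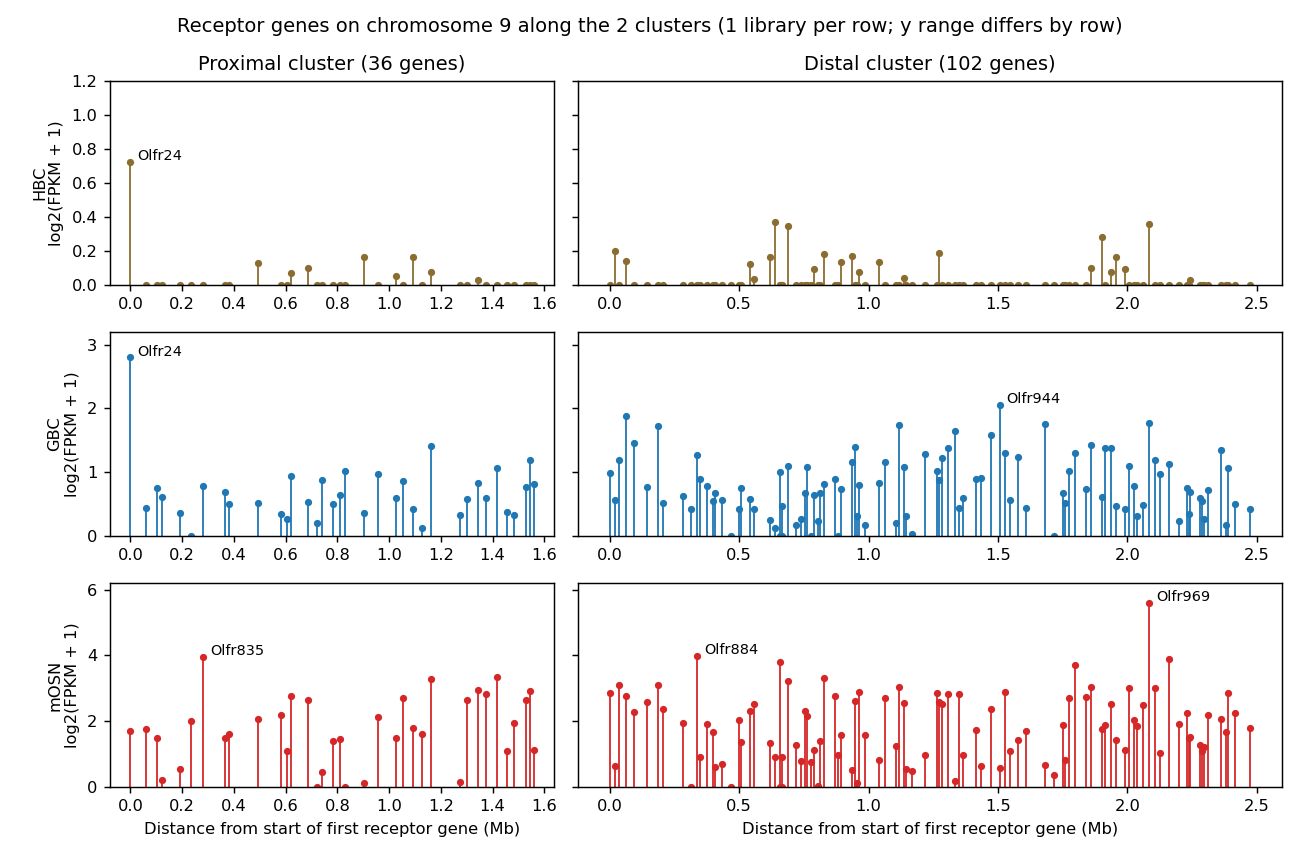
Level of each receptor gene, as log2(FPKM + 1), against its distance in Mb from the first receptor gene of the proximal cluster (left, 36 genes) and of the distal cluster (right, 102 genes), with 1 library per row (HBC, GBC, mOSN). Olfr24, at the proximal end, is the highest gene in HBC (0.649 FPKM) and in GBC (5.97 FPKM), and Olfr969, in the distal cluster, is the highest in mOSN (47.3 FPKM).

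Both clusters showed the same order of libraries. The proximal cluster summed to 1.21 (HBC), 25.8 (GBC) and 119 FPKM (mOSN), and the distal cluster to 2.603 (HBC), 83.9 (GBC) and 387 FPKM (mOSN). In mOSN the median gene stood at 2.32 FPKM in the proximal cluster and 2.55 FPKM in the distal one, and 29 of 36 and 75 of 102 genes reached 1 FPKM. In GBC the medians were 0.511 and 0.649 FPKM, with 5 of 36 proximal and 33 of 102 distal genes at 1 FPKM or more. In the deposited values the summed GBC level was 21.7% of the summed mOSN level in each cluster.

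Set against the 984 Olfr symbols on other chromosomes, those of chromosome 9 had lower medians in mOSN and GBC, while both medians were 0 in HBC. The median was 2.41 FPKM on chromosome 9 and 3.77 FPKM elsewhere in mOSN, and 0.595 and 0.804 FPKM in GBC. In mOSN 104 of 138 genes on chromosome 9 (75.4%) and 832 of 984 elsewhere (84.6%) reached 1 FPKM. Their share of all Olfr FPKM was 5.52% in HBC, 8.59% in GBC and 8.73% in mOSN, below their 12.3% of symbols. The 291 genes of chromosome 2 had medians of 0.629 FPKM in GBC and 3.65 FPKM in mOSN, and the 84 genes of chromosome 11 had 1.22 and 3.51 FPKM. In GBC the chromosome 9 genes were thus near those of chromosome 2 and below those of chromosome 11, while in mOSN they were below both. Genes are not replicates of a library, so these are descriptions of the 3 libraries.

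**Figure D2:**
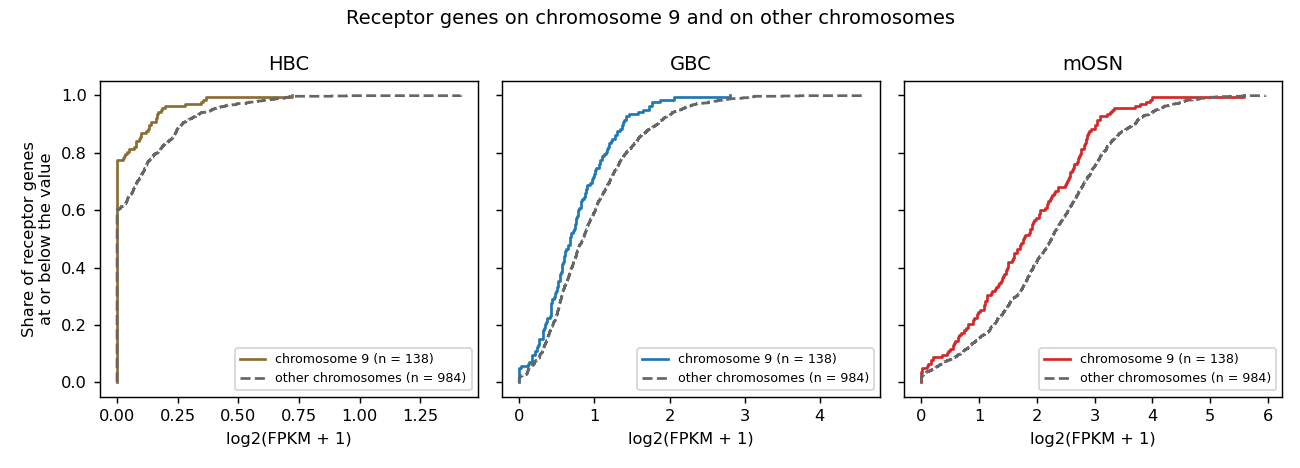
Cumulative share of receptor genes at or below a level, as log2(FPKM + 1), in HBC, GBC and mOSN, for the 138 genes of chromosome 9 (solid) and the 984 on other chromosomes (dashed). The solid line runs to the left of the dashed one over most of each panel, with medians in mOSN of 2.41 FPKM on chromosome 9 and 3.77 FPKM elsewhere.

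The step from precursor to mature neuron was addressed by mOSN against GBC, which share a library kit. At a 2-fold difference 76 of the 138 genes were higher in mOSN, 5 were lower and 57 lay in between. Over all 21909 symbols 12.8% were higher and 5.92% lower by at least 2-fold. The median log2 ratio of the 138 was 1.14 (quartiles 0.49 and 1.72), and that of all symbols was 0. Among the 12551 symbols with at least 1 FPKM in either library the median was 0.24, a shift of the library as a whole against which these ratios are to be read. That filter left 110 of the 138 members, and the 28 others were below 1 FPKM in both. By deposited intervals that do not overlap, 92 of 135 members with status OK were higher in mOSN and 5 lower, where the whole tables gave 30.6% and 23.9%. With a pseudocount of 5 FPKM the counts were 13 higher and 0 lower. The count of lower genes was 13 with a pseudocount of 0.1 FPKM, 10 with each library scaled to a common sum, and 3 with 1 conversion from fragments to FPKM per gene, shared by the libraries.

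Mature neuron markers moved with this result. All 7 markers on the list (Omp, Stoml3, S100a5, Gng13, Cnga2, Adcy3 and Gnal) were higher in mOSN by at least 2-fold. They summed to 146 FPKM in HBC, 1189 FPKM in GBC and 9448 FPKM in mOSN. None was at 0 in any library. Omp itself was at 71.6 (HBC), 427 (GBC) and 1487 FPKM (mOSN). GBC thus held 28.7% and HBC 4.82% of its mOSN level, the highest shares among the 7 markers. The others held at most 20.9% in GBC (Gng13) and at most 2.11% in HBC (Adcy3). As deposited, the summed receptor genes of chromosome 9 in GBC and HBC stood at 21.7% and 0.754% of mOSN. With 1 conversion from fragments to FPKM per gene the sums were 9.20 (HBC), 91.1 (GBC) and 587 FPKM (mOSN). The shares therefore depend on that step. Among the 7 markers, in the deposited values, only Omp had a larger share in GBC, and only S100a5 (0.429%) had a smaller share in HBC. The markers were not recomputed with 1 conversion per gene, so this order may not hold there. The summed Olfr symbols of other chromosomes stood at 22.1% (GBC) and 1.23% (HBC) of mOSN as deposited. Immature neurons had 6 markers on the list, of which 5 were lower in mOSN by that factor, with sums of 350 FPKM in mOSN and 1822 FPKM in GBC. Neurog1, whose reporter defined the GBC sort, stood at 0.0189 FPKM in mOSN and 163 FPKM in GBC. Sustentacular cell markers were also higher in mOSN, 4 of 5 by at least 2-fold (median log2 1.62), with sums of 139 FPKM in mOSN and 36.8 FPKM in GBC. The part of such cells in the receptor values was not tested.

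A single gene stood out in mOSN. Olfr969 (mm9, chr9:39602962-39603897) was listed at 0.279 (HBC), 2.40 (GBC) and 47.3 FPKM (mOSN, interval 43.7 to 50.8, 711 implied fragments). It alone made up 9.35% of the receptor FPKM of the chromosome in mOSN, and among all 1122 Olfr symbols it ranked 2 in mOSN and 115 in GBC. The next highest were Olfr884 (14.9 FPKM in mOSN against 1.42 in GBC) and Olfr835 (14.5 in mOSN against 0.719 in GBC). They were followed by Olfr972, with 13.8 FPKM in mOSN against 1.196 in GBC, by Olfr899, whose model overlaps another and is taken up with it, and by Olfr957, with 12.01 FPKM in mOSN against 1.47 in GBC. The interval of each of these 6 in mOSN lay above its interval in GBC, which their choice by mOSN level favours. The 5 highest genes, Olfr899 included, held 20.4% of the summed level in mOSN, against 15.1% for the 5 highest in GBC.

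In the proximal cluster Olfr835 was followed in mOSN by Olfr870, Olfr77, Olfr868 and Olfr873. Olfr870 had 9.05 FPKM in mOSN against 1.08 in GBC, and Olfr77 had 8.65 FPKM in mOSN against 1.67 in GBC. Olfr868 had 6.65 FPKM in mOSN against 0.771 in GBC, and Olfr873 had 6.47 FPKM in mOSN against 1.28 in GBC. Olfr869, near Olfr868 and of the same MOR145 family, had 6.03 FPKM in mOSN against 0.51 in GBC, one of the 3 largest ratios of the cluster (log2 2.22). Olfr18, the last gene of the cluster and of that family too, had 1.19 FPKM in mOSN against 0.764 in GBC, and the intervals of the 2 libraries overlapped.

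**Figure D3:**
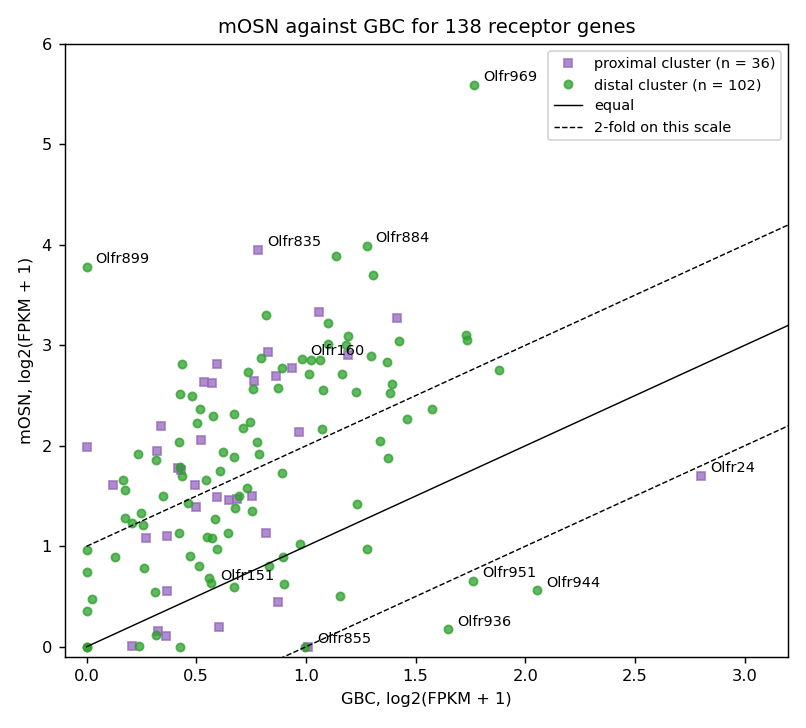
Level in mOSN (vertical) against GBC (horizontal) as log2(FPKM + 1) for 36 proximal genes (squares) and 102 distal genes (circles), with lines of equality and of a 2-fold difference. Most genes lie above the line of equality (116 of 138), Olfr969 lies far above it, and Olfr24, Olfr944, Olfr936, Olfr951 and Olfr855 lie at or beyond the lower 2-fold line.

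Genes were ranked partly alike in mOSN and GBC. Across the 138 genes the Spearman correlation of the 2 libraries was 0.466 (0.403 over the 36 proximal and 0.481 over the 102 distal genes). These points share their library, gene length and mapping, so the value is a description. Of the 5 highest genes in mOSN, Olfr969 ranked 4 in GBC, after Olfr24, Olfr944 and Olfr875, while Olfr884, Olfr972 and Olfr835 ranked 21, 29 and 57. The GBC rank of Olfr899 depends on the row that overlaps it and is not given. Olfr875 had 5.73 FPKM in mOSN against 2.68 in GBC (log2 0.87).

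The 5 genes that were lower in mOSN by at least 2-fold were also the 5 whose intervals lay below those of GBC. Olfr24 (mm9, chr9:18559136-18560077), at the proximal edge and the sole member of MOR132 on the chromosome, had 2.26 FPKM in mOSN (interval 1.52 to 2.99) against 5.97 in GBC (interval 4.72 to 7.22). It was the highest receptor gene of the chromosome in GBC, where it ranked 13 among all 1122 Olfr symbols, and ranked 749 of them in mOSN. Olfr944 had 0.475 FPKM in mOSN (interval 0.0859 to 0.864) against 3.15 in GBC (interval 2.10 to 4.21). Olfr951 had 0.576 FPKM in mOSN against 2.39 in GBC, and Olfr936 had 0.129 against 2.14. These 3 are all MOR171 genes and lie between chr9:38854199-39202322 (mm9) in the distal cluster. Olfr855, the one MOR148 gene, was listed at 0 in mOSN against 1.01 FPKM in GBC on 12 implied fragments.

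A lower level in mOSN of any size was listed for 21 of 138 genes (15.2%). It was listed for 80 of 984 on other chromosomes (8.13%) and 44.5% of all symbols. On chromosome 2 alone it was 27 of 291, and on chromosome 11 alone 10 of 84. Olfr250, Olfr900 and Olfr242, among the 21, each overlap another model. Summed with it, each was higher in mOSN (log2 2.79, 0.43 and 0.51). Most of the 21 were low in both libraries. Only 7 of them reached 1 FPKM in GBC, namely the 5 above, Olfr915 (0.418 FPKM in mOSN against 1.23 in GBC) and Olfr930 (0.959 in mOSN against 1.42 in GBC).

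**Figure D4:**
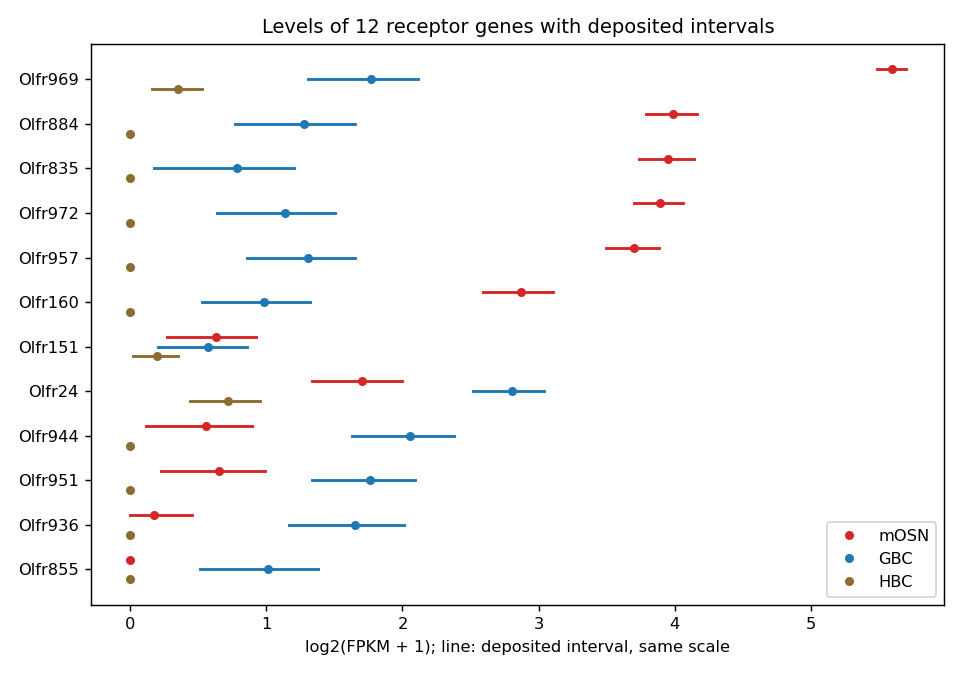
Level of 12 receptor genes as log2(FPKM + 1) in mOSN, GBC and HBC, with the deposited interval of each value as a line on the same scale. The mOSN interval lies above that of GBC for Olfr969, Olfr884, Olfr835, Olfr972, Olfr957 and Olfr160, overlaps it for Olfr151, and lies below it for Olfr24, Olfr944, Olfr951, Olfr936 and Olfr855.

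Near copies often differed in level. Among the 78 members compared by coding start, 12 pairs were each the other's nearest with at least 36 of 40 bases alike. Of these pairs, 11 lay within 1 MOR family. Within a pair the higher gene exceeded the lower in mOSN by 2.08-fold to 358-fold, with a median of 5.69-fold. The 358-fold difference lies between Olfr854 (1.75 FPKM) and Olfr850 (0.00491 FPKM, under 1 implied fragment). Olfr969 and its neighbour Olfr970, printed above, had 47.3 and 7.02 FPKM in mOSN and 2.40 and 1.27 FPKM in GBC. Olfr972 and Olfr968, alike in all 40 bases, had 13.8 and 4.62 FPKM in mOSN and 1.196 and 0.394 FPKM in GBC.

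In 4 of the 12 pairs the order of the 2 genes was not the same in mOSN and GBC. Olfr951 and Olfr954, which differ by the 1 base shown, had 0.576 and 2.705 FPKM in mOSN and 2.39 and 0.592 FPKM in GBC. Their sum was 3.28 FPKM in mOSN and 2.99 in GBC. Olfr944 and Olfr948 had 0.475 and 2.26 FPKM in mOSN and 3.15 and 0.351 FPKM in GBC, with sums of 2.73 FPKM in mOSN and 3.51 in GBC. In both pairs the near copy was the higher one in mOSN, and the log2 ratios of the sums were 0.10 and -0.27. The levels of single genes in these pairs are uncertain, and the part of fragment assignment in them was not tested. Summed over the pair, mOSN was above GBC in 10 of the 12.

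Overlapping gene models made 3 further pairs uncertain. The models of Olfr899 and Olfr250 overlap by 975 bases, and the level is listed under Olfr899 in mOSN (12.8 FPKM, against 0.000132 in GBC) and under Olfr250 in GBC (0.000278 FPKM in mOSN against 0.994 in GBC). Their sum was 12.8 FPKM in mOSN and 0.995 in GBC, a log2 ratio of 2.79 in place of 3.78 for Olfr899 alone. Olfr900 and Olfr251 summed to 0.874 FPKM in mOSN and 0.389 in GBC, and Olfr27 and Olfr242 to 2.87 and 1.72. The rows of Olfr250, Olfr251 and Olfr242 carry the status LOWDATA in all 3 libraries, and no row of the chromosome's receptor genes carries FAIL.

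Olfr160 and Olfr151, known as M72 and M71, are receptors whose tagged alleles have long served to trace sensory axons to their glomeruli. They are the first 2 genes of the distal cluster (mm9, chr9:37518933-37519865 and chr9:37537562-37538646). RefSeq on GRCm38.p6 classes Olfr160 as protein coding and Olfr151 as a transcribed pseudogene. Olfr160 was listed at 0 in HBC and had 0.973 FPKM in GBC and 6.303 in mOSN, where it ranked 21 among the 138. Olfr151 was listed at 0.146 (HBC), 0.483 (GBC) and 0.551 FPKM (mOSN), where it ranked 117 on 10.1 implied fragments. Its log2 ratio of mOSN over GBC was 0.06, and -0.13 with each library scaled to a common sum. Olfr151 was not among the coding starts compared, so its likeness to Olfr160 was not measured. The part of fragment assignment in the levels of these 2 was not tested. The GBC and mOSN intervals of Olfr151 overlapped (0.204 to 0.897 in mOSN and 0.152 to 0.814 in GBC), whereas those of Olfr160 did not (5.02 to 7.59 in mOSN and 0.443 to 1.502 in GBC). By distance over the 3 libraries on the log2 scale, the members most like Olfr151 were Olfr890 (0.204), Olfr889 (0.225) and Olfr955 (0.267).

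Receptor genes that RefSeq does not class as protein coding were lower. In the RefSeq table for GRCm38.p6, 129 members were protein coding, 5 were transcribed pseudogenes or, for Olfr915, a miscellaneous RNA, and 4 were not matched. The 5 were Olfr151, Olfr856-ps1, Olfr908, Olfr915 and Olfr947-ps1, with a median of 0.418 FPKM in mOSN against 2.62 FPKM for the 129 coding members. None of the 5 was at least 2-fold higher in mOSN than in GBC, against 74 of the 129. The highest of them was Olfr947-ps1, with 1.67 FPKM in mOSN against 1.35 in GBC. Receptor genes on other chromosomes showed the same order, with medians in mOSN of 0.115 FPKM for 11 genes not classed as coding and 3.80 FPKM for 954 coding genes. Among the 4 symbols with a -ps suffix, Olfr1537-ps1, not matched in RefSeq, had 6.43 FPKM in mOSN against 1.45 in GBC.

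**Figure D5:**
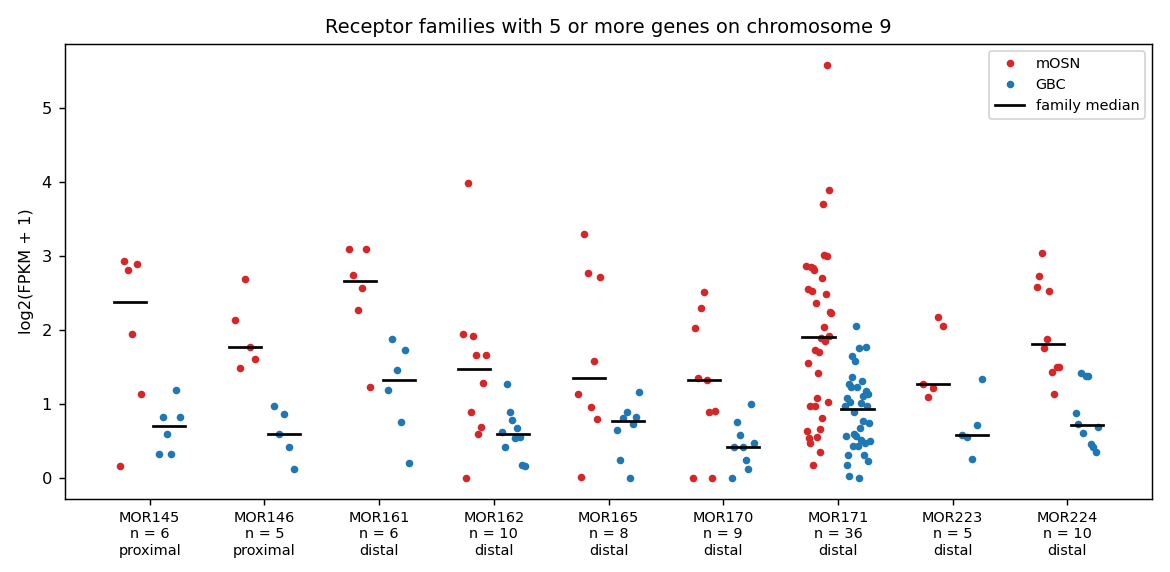
Levels in mOSN (left of each pair) and GBC (right) as log2(FPKM + 1) for the 9 MOR families with at least 5 members on chromosome 9, with 1 point per gene and a line at the family median. MOR145 and MOR146 lie in the proximal cluster and the others in the distal one, and MOR171, with 36 genes, spans from 0.129 to 47.3 FPKM in mOSN.

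In each of the 9 larger families the median in mOSN was above that in GBC. MOR171, the family of M71 and M72, held 36 of the 102 distal genes, with a median of 2.74 FPKM in mOSN against 0.909 in GBC. Of these, 21 were higher and 3 lower in mOSN by at least 2-fold. MOR161 had the highest median of the 9 larger families (5.33 FPKM in mOSN against 1.52 in GBC), with 4 of 6 members at least 2-fold higher, among them Olfr145 (7.59 against 2.32) and Olfr874 (7.53 against 1.28). MOR223 had the lowest (1.41 FPKM in mOSN against 0.501 in GBC), with 1 of 5 members at least 2-fold higher. MOR145 had a median of 4.45 FPKM in mOSN against 0.637 in GBC, and MOR146 had 2.43 against 0.511, with 4 of 6 and 4 of 5 members at least 2-fold higher. MOR162 ranged from 0.00148 FPKM (Olfr883, under 1 implied fragment) to 14.9 FPKM (Olfr884) in mOSN among 10 members, so members of 1 family lay far apart in level.

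Median ratios were largest in the windows at or near the distal end of each cluster. In windows of 0.5 Mb from the first gene, the proximal cluster had median log2 ratios of mOSN over GBC of 0.95, 0.81, 1.73 and 1.71, the last window holding 3 genes. The distal cluster had 1.13, 0.96, 0.93, 1.06 and 1.495 over its 5 windows. In its last window, from Olfr965 to Olfr986, all 21 genes were above their GBC level, and the window held Olfr969 and Olfr972. The levels of neighbouring genes in mOSN had a Spearman correlation of 0.133 over 35 neighbour pairs in the proximal cluster and -0.026 over 101 in the distal one.

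Of the 20 genes of other kinds in or beside the clusters, 1 was higher and 1 lower in mOSN than in GBC by at least 2-fold. Over all symbols 12.8% were higher and 5.92% lower. Inside the proximal cluster Zfp317, a zinc finger gene, had 8.06 FPKM in mOSN against 11.6 in GBC. Inside the distal cluster lie Vwa5a (15.7, 0.849 and 0.35 FPKM in HBC, GBC and mOSN), AW551984, the lower one (0.104 in mOSN against 1.42 in GBC), 1700001J11Rik (0.679 in mOSN against 1.61 in GBC) and Tmem225 (listed at 0 in all 3). The higher one, among 15 genes within 200 kb outside the clusters, was Scn3b, a sodium channel beta subunit gene beyond the distal end, with 89.0 FPKM in mOSN against 20.1 in GBC.

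HBC held little receptor RNA from the chromosome. The 31 members above 0 in that library rested on 1 to 20 implied fragments each. Between GBC and HBC 36 of 138 differed by at least 2-fold, all towards GBC, and the whole tables gave 21.7% higher and 14.7% lower. That count of 36 was 124 with a pseudocount of 0.1 FPKM, 0 with one of 5 FPKM and 115 with each library scaled to a common sum. At the common sum the pseudocount also weighs less. By intervals 84 of 135 lay above and 0 below, against 42.6% and 27.2% of all symbols. Between mOSN and HBC 103 were higher and 0 lower, against 26% and 14.8% of all symbols, and by intervals 119 of 135 lay above and 0 below, against 41.4% and 28.1%. The highest in HBC was Olfr24, with 0.649 FPKM (interval 0.359 to 0.939) on 20 implied fragments and 53.6% of the summed level of its cluster. It was followed by Olfr898 (0.29 FPKM), Olfr969 (0.279) and Olfr147 (0.272). Of these 4, Olfr969 ranked 1 and Olfr147 ranked 10 in mOSN, whereas Olfr898 ranked 110, and it had 0.859 FPKM in mOSN and 0.0926 in GBC. In the proximal cluster Olfr860 (0.121 FPKM) and Olfr856-ps1 (0.119 FPKM) came next after Olfr24.

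The HBC library also held RNA of other cell types. Its 6 basal cell markers summed to 1081 FPKM, its 5 macrophage markers to 2704 FPKM and its 5 sustentacular cell markers to 1778 FPKM. In GBC these sums were 1.37, 3.78 and 36.8 FPKM, in mOSN 2.84, 2.74 and 139 FPKM, and no marker was at 0 in any library. The 7 mature neuron markers ranged there from 5.25 FPKM (Gng13) to 71.6 FPKM (Omp). Their part in the receptor values of HBC was not tested.

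Genes that carry receptors to the cilium and transmit their signal were compared beside them. All 15 on the list were at least 2-fold higher in mOSN than in GBC (median log2 2.85). Rtp1 and Rtp2, chaperones that bring receptors to the cell surface, had 428 and 299 FPKM in mOSN against 108 and 97.2 in GBC. Gnal, the olfactory G protein alpha subunit, had 1141 FPKM in mOSN against 157 in GBC. Adcy3, the cyclase it activates, had 547 FPKM in mOSN against 32.8 in GBC. Genes known to act in receptor choice differed from that list, since 0 of 16 were higher in mOSN by that factor and 2 were lower (median -0.45). The 2 were Ldb1, a cofactor that bridges receptor enhancers (36.3 FPKM in mOSN against 80.9 in GBC), and Ehmt1, a histone H3K9 methyltransferase (6.06 FPKM in mOSN against 17.002 in GBC). Lhx2, a homeodomain factor that binds receptor enhancers and promoters, had 110 FPKM in mOSN against 170 in GBC. Of the Olf1/Ebf factors, Ebf1 and Ebf2 had 70.8 and 124 FPKM in mOSN against 117 and 173 in GBC, while Ebf3 and Ebf4 had 158 and 106 FPKM in mOSN against 104 and 54.9 in GBC.

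The sequence before the annotated start was searched for the sites of these factors. RefSeq windows of 300 bases, 250 before and 50 after the start, were held for 108 of 138 members, in 109 windows, and in 67 of them the annotated start is the ATG itself, so these windows need not hold the promoter. The homeodomain letters TAATNA, on either strand, occurred in 73 of 109 windows (67.0%), in 65.8% of all 948 Olfr windows and in 26.5% of all 32851 windows. TAATTG, a homeodomain variant searched in the same way, occurred in 22 of 109, 220 of 948 and 2628 of 32851 windows, and no 6 letters match both. The Olf1/Ebf core CCCNNGGG occurred in 1.83%, 3.06% and 13.7%. With a T before that core and an A after it, on the same strand, it occurred in 0 of 109, 5 of 948 and 297 of 32851 windows, and each of these also counts for the core. The base composition of the windows was not compared, and its part in these shares was not tested. The 250 bases before the annotated start of Olfr77, a model that starts upstream of its ATG and one of the 5 highest proximal genes in mOSN, hold 4 matches to TAATNA, in capitals (GRCm38.p6, chr9:19916979-19917228, plus strand).
Olfr77: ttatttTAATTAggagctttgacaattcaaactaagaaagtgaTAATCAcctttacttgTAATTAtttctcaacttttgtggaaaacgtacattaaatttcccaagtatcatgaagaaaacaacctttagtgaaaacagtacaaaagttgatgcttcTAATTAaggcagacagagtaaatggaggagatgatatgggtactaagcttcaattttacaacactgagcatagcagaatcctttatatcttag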

How the data were processed

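FPKM per gene, with interval bounds and a status, were deposited by the authors in 1 table for each mRNA library. Bowtie, TopHat, Cufflinks and mm9 stand in the submitters' processing notes, with no version. The sources used here name neither the annotation nor the Cufflinks options. Samples were grouped by title, and the 3 samples each of 5-hydroxymethylcytosine and 5-methylcytosine were not used.

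Rows of 1 symbol were summed (22345 rows, 21909 symbols), and starts were raised by 1. A cluster ended at a gap over 1 Mb. Implied fragments are the square of 2 times the FPKM over the half-width of its interval. Ratios used a pseudocount of 1 FPKM, with no filter on low values and no test. Members and lists were chosen with earlier results of these data known. Genes were named per cluster as the 5 highest in mOSN, the 3 highest in GBC and in HBC, and the 3 lowest and highest ratios of mOSN over GBC among genes of at least 1 FPKM in either, plus Olfr151, Olfr160, the 3 genes most like Olfr151 and those at 0 in mOSN (Olfr855, and Olfr891, at 0 in all 3). Other members in the text were picked after their values were seen. The protein comparison planned for Olfr151 and Olfr160 was not run. Coding starts of 78 members, with Olfr160 but not Olfr151 among them, were compared in its place. The 2-fold rule was run on simulated counts in which 200 genes of at least 1 FPKM in the reference were raised 8-fold. For mOSN over GBC 200 were recovered, with 18 other genes called higher and 20 lower. Most members lie below 1 FPKM in GBC and smaller changes were not simulated, so this does not measure the rule for them. Python 3.11.15, pandas 2.3.3, numpy 2.4.6, scipy 1.17.1 and matplotlib 3.10.9 were used.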

Additional observations from a re-analysis of the deposited data

How the results depend on the processing

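No paired analysis was possible because each group had 1 library. Of 13 alternatives, 1, joining overlapping rows, was chosen after seeing the data. Single-gene ratios of mOSN over GBC were recomputed under the alternatives only for the 28 named members. Among these 28 the sign turned for 2 genes near 0, both at the common sum. They were Olfr151 (log2 -0.13, reported 0.06) and Olfr890 (-0.0027, reported 0.13). Sign changes among the other members were not counted. No replicate could be left out. The median log2 ratio of mOSN over GBC for all members, the proximal and the distal cluster was 1.14, 1.25 and 1.13 as reported. It was 2.02, 2.16 and 2.003 with a pseudocount of 0.1 FPKM and 0.44, 0.47 and 0.43 with one of 5 FPKM. It was 1.37, 1.51 and 1.34 for members at 1 FPKM in either library, 1.53, 1.70 and 1.52 with each library scaled to a common sum, 0.96, 1.06 and 0.95 with median-of-ratios scaling, and 1.44, 1.59 and 1.33 with 1 conversion factor per gene. The median of all symbols at 1 FPKM was 0.24 as deposited, -0.09 at the common sum, 0.08 with median-of-ratios scaling and -0.05 with 1 conversion factor. Members at least 2-fold higher in mOSN than in GBC numbered 76, and 13 with a pseudocount of 5 FPKM. Those lower by as much numbered 5, and 13, 0, 10 and 3 with pseudocounts of 0.1 and 5 FPKM, the common sum and 1 conversion factor. Members higher in GBC than in HBC numbered 36, and 124, 0 and 115 with both pseudocounts and the common sum. Members higher in mOSN than in HBC numbered 103, and 37 with a pseudocount of 5 FPKM. At a value of 1 the common sum gave 5 members in HBC and 121 in GBC. That scale raises all values while the cut-off and pseudocount stay at 1. The counts given for it therefore also reflect a lower cut-off or pseudocount in FPKM. With 1 conversion factor 1 member in HBC reached 1 FPKM. The summed levels of members were 3.81 (HBC), 109.8 (GBC) and 506 FPKM (mOSN) as reported. In the same order they were 9.20, 91.1 and 587 FPKM with 1 conversion factor. Median-of-ratios scaling gave 5.31, 99.1 and 402. In HBC 107 members were listed at 0 and the others rested on at most 20 implied fragments, in the library with the most implied fragments of the 3. Clusters stayed 2 with breaks at 0.5 and 2 Mb.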
